A study of Drosophila melanogaster with 12 samples.

Results

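The proteasome subunits were described in the translatome of adult fly oenocytes, as 32 genes that encode the 20S core and the 19S cap of the particle. They were chosen by symbol alone: Prosalpha1 to Prosalpha7, Prosbeta1 to Prosbeta7, Rpt1 to Rpt6, and Rpn1, Rpn2, Rpn3, Rpn5 to Rpn13. All 32 were found among the 16191 loci of the authors' deposited table, and 31 had a value above 0. Oenocytes are cells under the abdominal cuticle that make cuticular hydrocarbons and handle lipids, and are often likened to the liver. The RiboTag method was used, in which a FLAG-tagged ribosomal protein, RpL13A, is made in the cells of interest and ribosome-bound RNA is pulled down with an antibody against the tag. Mated females carrying PromE-Gal4 > Rpl13A-FLAG were used in all groups, so every group carried the tagged protein, and PromE-Gal4 is the only thing that limits the tag to oenocytes. The sample labels put young flies at 14 days and aged flies at 28 days after eclosion, while the methods of the study state other ages. Flies spent the last 24 h on food coated with 10 mM paraquat, a herbicide that produces superoxide, or with water. There were 4 groups of 3 libraries each, H2O-Young and H2O-Aged on water and PQ-Young and PQ-Aged on paraquat.

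The proteasome degrades proteins tagged with ubiquitin. Its 20S core is a barrel of stacked rings, with alpha subunits outside as a gate and beta subunits inside, where Prosbeta1, Prosbeta2 and Prosbeta5 carry the proteolytic sites. The 19S cap has a base, with a ring of Rpt ATPases that unfold the substrate, and a lid, in which Rpn11 removes the ubiquitin chain. All of the subunits are needed for one particle, and in flies the transcription factor Cnc is known to drive their genes when proteasome activity drops.

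Each value is the authors' FPKM (fragments of a transcript scaled to its length and to the mapped fragments) for a group, pooled over its 3 libraries by Cuffdiff. The table holds no value per library and no depth, so no SD or interval is given and no test was run here, and every difference below lacks a replicate check. The columns that hold the authors' own tests of the pairs of groups were left aside. A subunit is said to have fallen or risen only where the ratio of the group values was at least 2-fold. Flies were ground before the pull-down and equal amounts of RNA entered each library, so that fewer oenocytes and less RNA per oenocyte cannot be told apart. A library of H2O-Young stood apart from its group in the principal component analysis of the study, and its weight in the group value could not be removed. The summed FPKM of the 13246 protein-coding loci used was 1648540 in H2O-Young against 748213 in H2O-Aged, and 1221734 in PQ-Young against 733727 in PQ-Aged. These totals differed between groups, while the median log2 ratio of coding loci with at least 1 FPKM was -0.11 with age both in water and in paraquat. Where 4 values of a gene or group of genes stand in a row without further names, they are those of young flies on water, young flies on paraquat, aged flies on water and aged flies on paraquat.

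In young oenocytes the proteasome subunits were among the most abundant messages. The 31 measured subunits took 8.34% of the summed protein-coding FPKM in H2O-Young against 3.94% in H2O-Aged, and 6.42% in PQ-Young against 3.91% in PQ-Aged. Of the 50 protein-coding loci of highest FPKM, 8 were proteasome subunits in H2O-Young and 7 in PQ-Young, but 2 in each of the aged groups. Of the 100 loci of highest FPKM, 14, 9, 7 and 8 were subunits, so that under paraquat the count hardly differed with age at this limit. Prosalpha2, an alpha ring subunit, was the most abundant of them in H2O-Young. It stood at rank 7 of the 13246 protein-coding loci used in H2O-Young and at rank 69 in H2O-Aged. These ranks, counts and shares leave out 53 protein-coding loci marked as holding too many fragments, some of which may stand above the subunits.

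**Figure D1:**
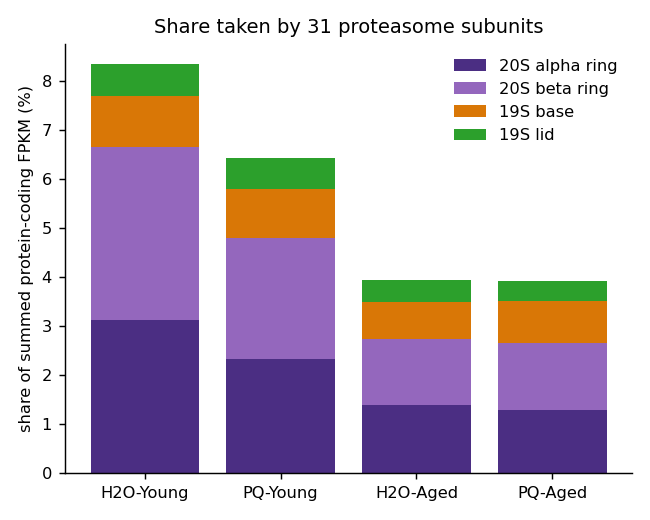
Share of the summed protein-coding FPKM (%, vertical axis, from 0) taken by the 31 measured subunits in each of the 4 groups, stacked by subcomplex. The stacks reach 8.34%, 6.42%, 3.94% and 3.91%, and most of the difference between the first and the third is in the alpha and beta rings.

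The core was the part of the share that differed most. The 13 measured core subunits held 6.65%, 4.79%, 2.73% and 2.66% of the coding FPKM. The 18 cap subunits held 1.69%, 1.63%, 1.22% and 1.25%. The median FPKM of the core was 8985, 4424, 1371 and 1386, against 1187, 946, 409 and 440 for the cap. Core messages therefore exceeded cap messages by 7.57-fold in H2O-Young, 3.35-fold in H2O-Aged, 4.68-fold in PQ-Young and 3.15-fold in PQ-Aged, by the ratio of the medians. FPKM is corrected for transcript length, but the annotated transcripts of the core genes are shorter, with a median of 971 nt against 1534 nt for the cap.

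**Figure D2:**
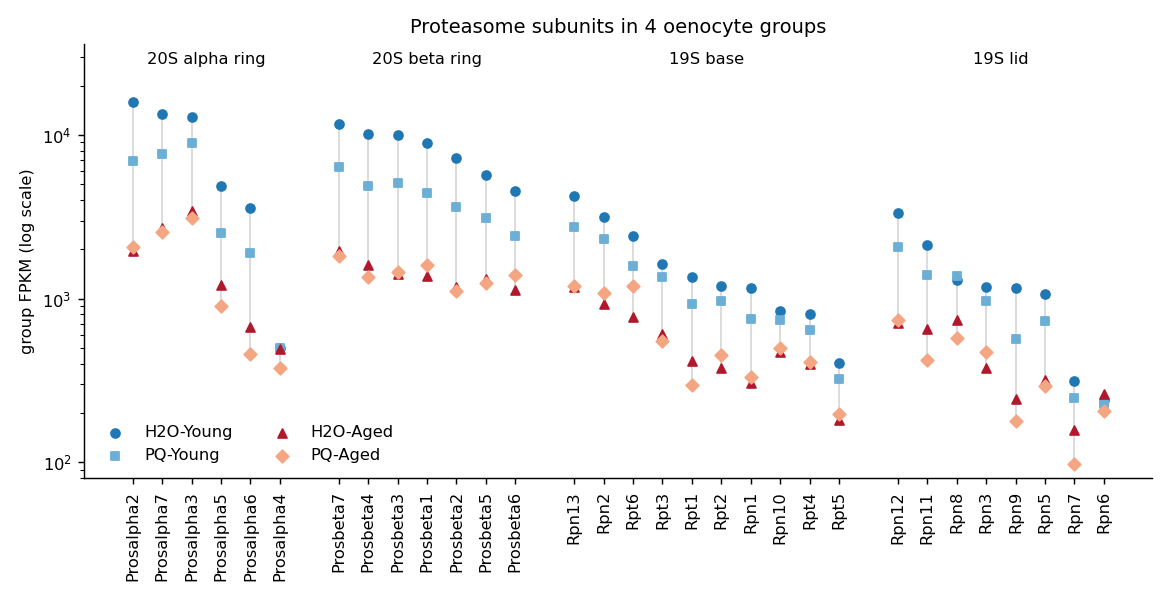
Group FPKM (vertical axis, log scale) of the 31 measured proteasome subunits, one column per gene, ordered by H2O-Young within each subcomplex; circles, squares, triangles and diamonds are the 4 groups, with 1 pooled value each. In most columns the young groups stand above the aged groups, while the 4 points of Prosalpha4 lie between 376 and 502 and those of Rpn6 between 205 and 263.

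In the alpha ring, Prosalpha2 was at 15986.5 FPKM in H2O-Young against 1942 in H2O-Aged, and 6936 in PQ-Young against 2075 in PQ-Aged. Its gene lies on chromosome arm 3R at 12431321 to 12432556, plus strand (dm6). It was 8.23-fold lower in H2O-Aged than in H2O-Young, the largest ratio among the 31 subunits, and 3.34-fold lower in PQ-Aged than in PQ-Young. Prosalpha7 (13528, 7692, 2686 and 2567 FPKM) and Prosalpha3 (12922, 8966, 3426 and 3125 FPKM) followed it in H2O-Young. The order was not the same in aged oenocytes, where Prosalpha3 was the highest of all subunits. In H2O-Aged it stood at rank 16 of the protein-coding loci used. Prosalpha5 and Prosalpha6 were lower in level, at 4849 and 3599 FPKM in H2O-Young, and were 4.02-fold and 5.33-fold lower in H2O-Aged.

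Prosalpha4 was the exception in this ring. It was at 496 FPKM in H2O-Young against 495 in H2O-Aged, and 502 in PQ-Young against 376 in PQ-Aged, so that none of its ratios between groups reached 2-fold. The gene lies on chromosome X at 16276270 to 16277587, plus strand. In H2O-Young its level was 3.84% of the median of the other 5 measured alpha subunits, and in H2O-Aged it was 25.5% of that median. Paralogs of this subunit exist in the testis, and Prosalpha4T1 and Prosalpha4T2 were at or below 0.225 FPKM in every group.

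Prosalpha1 had no usable value. It was listed at 0 in all 4 groups at both of its 2 loci, although the subunit is a fixed part of the alpha ring that other cells of the fly need as well. A near-identical copy, Prosalpha1R, is annotated over one of these loci and has no locus of its own in the table. The zero is therefore reported as listed, with no statement on the level of Prosalpha1.

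The beta ring varied least among its members. The 7 subunits spanned 2.54-fold in H2O-Young, from 4572 FPKM for Prosbeta6 to 11628 for Prosbeta7, and 1.75-fold in H2O-Aged, from 1125 for Prosbeta6 to 1964 for Prosbeta7. Of the catalytic subunits, Prosbeta1, the caspase-like one, was at 8985 FPKM in H2O-Young against 1371 in H2O-Aged, and 4424 in PQ-Young against 1598 in PQ-Aged. Prosbeta2, the trypsin-like one, was at 7251, 3619, 1177 and 1110 FPKM. Prosbeta5, the chymotrypsin-like one, was at 5681 FPKM in H2O-Young against 1323 in H2O-Aged, and 3109 in PQ-Young against 1246 in PQ-Aged. All of the catalytic subunits were lowest in the aged groups, and were 6.55-fold, 6.16-fold and 4.30-fold lower in H2O-Aged than in H2O-Young, respectively. Among the non-catalytic subunits, Prosbeta3 had the largest ratio with age, with 9957 FPKM in H2O-Young against 1419 in H2O-Aged, and 5104 in PQ-Young against 1460 in PQ-Aged. Its gene lies on arm 3R at 9005313 to 9006226, minus strand, in 1 exon. Prosbeta6 had the smallest, with 4572, 2429, 1125 and 1386 FPKM, and it was the only beta subunit that did not reach 2-fold between PQ-Young and PQ-Aged. Prosbeta7 was at 11628, 6394, 1964 and 1835 FPKM, and Prosbeta4 at 10120, 4907, 1604 and 1348.

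Among the 10 base subunits, Rpn13, a ubiquitin receptor, was the most abundant in H2O-Young, at 4242 FPKM, against 1176 in H2O-Aged, and at 2754 in PQ-Young against 1191 in PQ-Aged. Rpt5, an ATPase of the ring, was the lowest, at 404, 322, 181 and 197 FPKM. The 6 ATPases were far from equal in level, from 404 for Rpt5 to 2429 for Rpt6 in H2O-Young. Rpn1, a scaffold that binds shuttle factors, had the largest ratio with age in the base, with 1158 FPKM in H2O-Young against 307 in H2O-Aged, and 751 in PQ-Young against 333 in PQ-Aged. Rpn10, a further ubiquitin receptor, had the smallest, with 843, 742, 474 and 501 FPKM, and did not reach 2-fold. The locus of Rpt1 also holds CG17985, so its value may include reads of that gene.

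In the lid, Rpn12, which in yeast joins the particle last, was the most abundant in H2O-Young, at 3322 FPKM, against 706 in H2O-Aged, and at 2077 in PQ-Young against 744 in PQ-Aged. Rpn9, a scaffold subunit, had the largest ratio with age, with 1157 FPKM in H2O-Young against 244 in H2O-Aged, and 564 in PQ-Young against 178 in PQ-Aged. Its gene lies on arm 3R at 23731375 to 23733462, minus strand. Rpn6, a clamp that holds the core to the cap, was the lowest in H2O-Young and did not follow, with 240 FPKM in H2O-Young against 263 in H2O-Aged, and 226 in PQ-Young against 205 in PQ-Aged. Its level was 20.3% of the median of the other 7 lid subunits in H2O-Young and 70.2% in H2O-Aged. Rpn11, the deubiquitinase, was at 2133, 1400, 651 and 424 FPKM. Rpn8, its partner, was at 1293, 1366, 738 and 571 FPKM, and its ratio with age in water, 1.75, did not reach 2-fold.

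Age in water was the comparison in which most subunits passed the fold threshold. Between H2O-Young and H2O-Aged, 27 of 31 fell at least 2-fold, 12 of 13 in the core and 15 of 18 in the cap, and none rose. Over all protein-coding loci tested, 25.9% were at least 2-fold lower and 17.6% at least 2-fold higher, and among loci with a mean of at least 100 FPKM, as all 31 subunits have, 44.2% were lower. Those that did not pass were Prosalpha4, Rpn10, Rpn6 and Rpn8. The median log2 ratio was -2.41 for the core (-2.17 for the alpha ring and -2.62 for the beta ring) and -1.66 for the cap (-1.66 for the base and -1.68 for the lid), against -0.17 for all protein-coding loci and -0.85 for those with a mean of at least 100 FPKM. Every beta subunit lay between -2.81 and -2.02, and with the exception of Prosalpha4 every alpha subunit lay between -3.04 and -1.92. In the base the ratios ran from -1.92 to -0.83, and in the lid from -2.24 to 0.13.

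These counts depended on how the groups are scaled to each other. With quantile normalization 9 of 31 subunits fell at least 2-fold and 1 rose, and with FPKM expressed as a share of the summed coding FPKM 10 fell and 2 rose. The subunits that rose were Prosalpha4 in both cases (1.07 and 1.14 on the log2 scale) and Rpn6 in the second (1.27). Shares of all coding loci past 2-fold were computed for FPKM as deposited only. No such share stands beside the counts under another scaling, here or below. The median of the 31 subunits stayed below 0, at -0.56 and -0.71, in place of -1.85. The median of coding loci with at least 1 FPKM moved from -0.11 to 1.03 when values were expressed as a share, and relative to it the subunits were lower by 1.74 on the log2 scale under each scaling by a single factor, by construction, and by 0.63 after quantile normalization.

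**Figure D3:**
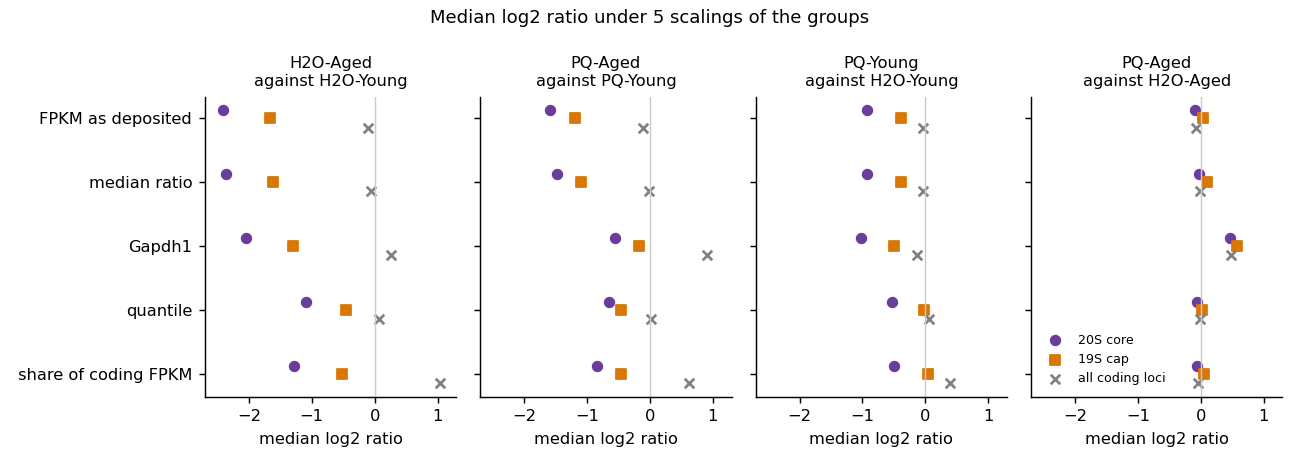
Median log2 ratio (horizontal axis) of the 20S core, the 19S cap and all coding loci with at least 1 FPKM under 5 scalings of the groups (rows), 1 panel per comparison. With age in water the core lies at -2.41 for FPKM as deposited, -1.09 after quantile normalization and -1.27 as a share of coding FPKM, to the left of the cap and of all coding loci in each row of that panel.

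Other abundant short messages were lower as well, by less than the core. With ribosomal proteins left out they were lower by about as much as the 31 subunits together. The 148 other protein-coding loci with a mean of at least 1000 FPKM and a transcript under 1500 nt had a median log2 ratio of -1.08 with age in water, and 85 of them were at least 2-fold lower, against -1.85 and 27 of 31 for the subunits. Without the cytosolic ribosomal proteins 82 such loci were left, with a median of -1.88, and 60 of them were at least 2-fold lower. The median of the 31 subunits lay close to that value, and the median of the core, -2.41, below it. The sets of 148 and 82 loci were chosen after the subunits' values had been seen. Their mean is taken over all 4 groups, so a locus high only in H2O-Young can pass. The same holds for the loci with a mean of at least 100 FPKM. Ribosomal proteins, a comparably abundant group, had a median of -0.78, with 28 of 87 at least 2-fold lower. That count lies between the shares of all protein-coding loci, 25.9%, and of those with a mean of at least 100 FPKM, 44.2%. The ribosomal median turned to 0.63 after quantile normalization and to 0.36 as a share of coding FPKM. The 8 subunits of the CCT chaperonin, a large complex that folds actin and tubulin, had a median of 0.21 and none reached 2-fold. As a share of coding FPKM all 8 were at least 2-fold higher, but there the median of all coding loci with at least 1 FPKM was itself 1.03.

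Oenocyte marker genes were also lower with age in water, as were those of some other cells. All 8 oenocyte markers with a value (fatty acid synthases, desaturases, elongases and other genes of hydrocarbon synthesis) stood above 1 FPKM in every group, but Cyp4g1, the ninth and a defining one, was marked as holding too many fragments and is listed at 0. Their FPKM summed to 37086, 20223, 5113 and 3911, and 7 of 8 were at least 2-fold lower with age in water. Markers of other cells were also present. The 12 genes of follicle cells and eggshell summed to 16847, 3699, 2120 and 2236 FPKM, the 8 midgut genes to 9192, 5167, 2292 and 2911, the 8 fat body genes to 21478, 7813, 2171 and 1108, and the 10 germline genes to 447, 502, 668 and 735. The 9 muscle genes summed to between 455 and 848 FPKM, the 7 neuron genes to between 112 and 163, and the 7 hemocyte genes to between 39.7 and 55.8. With age in water 12 of 12 eggshell, 8 of 8 midgut, 5 of 7 tested fat body and 5 of 7 neuron genes were at least 2-fold lower, and 5 of 10 germline genes were at least 2-fold higher with none lower. Of the 7 hemocyte genes 2 were lower and 1 higher, and of the 9 muscle genes 1 was lower and 3 higher. Over all protein-coding loci 25.9% were at least 2-fold lower and 17.6% higher, and the hemocyte counts lie near these shares. Among loci with a mean of at least 100 FPKM 44.2% were lower. Most of the neuron sum came from Syx1A (73.2, 84.9, 93.3 and 132.9 FPKM), whose locus also holds eIF4EHP. Most of the fat body sum came from the yolk protein genes Yp1, Yp2 and Yp3, at 6020, 14515 and 899 FPKM in H2O-Young. The highest of the other listed fat body genes in that group was apolpp, at 24.8 FPKM. The part of these cells in the values of the proteasome subunits was not tested.

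The age difference was also measured in flies given paraquat, with other libraries. Between PQ-Young and PQ-Aged, 24 of 31 subunits fell at least 2-fold, 11 of 13 in the core and 13 of 18 in the cap, and none rose. The share of all protein-coding loci was 17.0% lower and 12.6% higher, and 28.2% lower among loci with a mean of at least 100 FPKM. The median log2 ratio was -1.58 for the core and -1.19 for the cap, against -0.11 for all protein-coding loci, -0.60 for those with a mean of at least 100 FPKM and -1.13 for the 82 abundant short loci. The subunits that did not pass were Prosalpha4, Prosbeta6, Rpt4, Rpt5, Rpt6, Rpn10 and Rpn6. Prosalpha6 had the largest ratio, at 4.11-fold lower. Scaled to Gapdh1, a glycolytic enzyme that was itself 907 FPKM in PQ-Young and 447 in PQ-Aged, 1 subunit fell, and 3 fell after quantile normalization and 5 as a share of coding FPKM. The median of the 31 subunits stayed below 0 in each of these, at -0.31, -0.51 and -0.59.

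**Figure D4:**
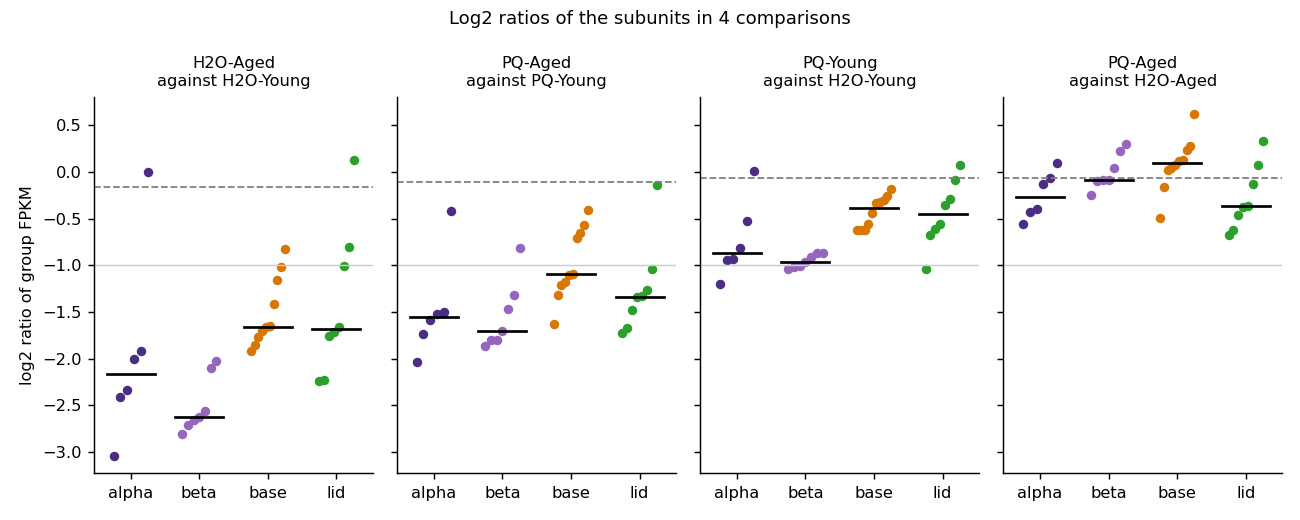
Log2 ratio of group FPKM (vertical axis) of each measured subunit by subcomplex in 4 comparisons (panels). Points are genes, black bars the median of a subcomplex, the dashed line the median of all protein-coding loci and the thin grey line the 2-fold limit of -1. In the first panel 27 of 31 points lie at or below -1, in the second 24, in the third 5 and in the last none.

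Across the 31 subunits the ratios with age in water and in paraquat, which share no library, were related with r = 0.79 (Pearson) and rho = 0.77 (Spearman), given as a description, since the genes are not independent and the groups share the pull-down and the build of the table. Within the core the values were 0.83 and 0.62, and within the cap 0.67 and 0.55. Subunits that were more abundant in PQ-Young, a group outside the comparison, had the lower ratios with age in water, with r = -0.78 and rho = -0.78 over 31 genes. In the core r = -0.78 and rho = -0.37 over 13 genes, and in the cap r = -0.58 and rho = -0.42 over 18 genes. Transcript length ran with the ratio over all 31 subunits, with r = 0.44 and rho = 0.62. Within the core the values were 0.46 and 0.41, and within the cap -0.04 and -0.18. Over coding loci with at least 1 FPKM the median ratio with age in water was -0.60 for transcripts under 1500 nt, 0.08 for 1500 to 3000 nt and 0.14 for at least 3000 nt, and the part of transcript length in the result was not tested.

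**Figure D5:**
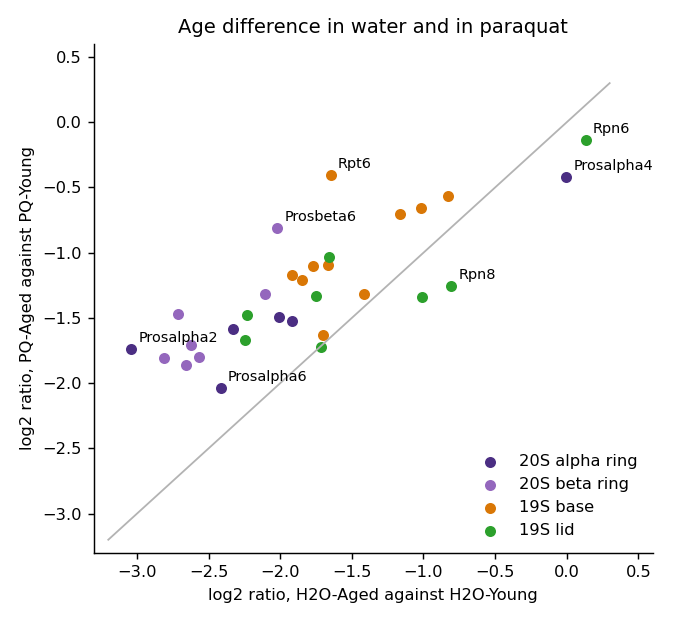
Log2 ratio of group FPKM with age in water (horizontal axis) against that in paraquat (vertical axis) for the 31 measured subunits, coloured by subcomplex, with the line of equal values in grey. Most core subunits lie above the line, with Prosalpha2 at -3.04 and -1.74, and Prosalpha4 and Rpn6 lie near 0 on both axes.

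With paraquat in young flies fewer subunits passed the limit. Between H2O-Young and PQ-Young 5 of 31 subunits fell at least 2-fold, namely Prosalpha2 (2.30-fold), Prosbeta4 (2.06-fold), Rpn9 (2.05-fold), Prosbeta1 (2.03-fold) and Prosbeta2 (2.00-fold), and none rose. This comparison shares the H2O-Young libraries with age in water. At least 2-fold lower were 13.6% of all protein-coding loci, and 8.63% were at least 2-fold higher, while 10.2% of loci with a mean of at least 100 FPKM were lower. Several subunits lay just short of the limit, and 17 were at least 1.5-fold lower. The median log2 ratio was -0.93 for the core, with every beta subunit between -1.04 and -0.86, and -0.39 for the cap. All protein-coding loci had a median of -0.06, those with a mean of at least 100 FPKM one of -0.26, and the 82 abundant short loci one of -0.62. The 31 subunits together also had -0.62, but many cap subunits lie outside the limits of that set. No subunit fell at least 2-fold after quantile normalization or as a share of coding FPKM, where the median of the cap was -0.03 and 0.04, and 9 did when scaled to Gapdh1. The core stayed below 0 under all 5 scalings, between -1.03 and -0.50.

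In aged flies no subunit reached 2-fold with paraquat. Between H2O-Aged and PQ-Aged 0 of 31 subunits were lower or higher, where 7.47% of protein-coding loci were at least 2-fold lower and 8.57% at least 2-fold higher. Among loci with a mean of at least 100 FPKM, as all 31 subunits have, only 0.86% were lower and 0.36% higher. No test was run here, so no count at a p-value stands beside the 0 of 31. The median log2 ratio was -0.09 for the core and 0.03 for the cap, against -0.06 for all protein-coding loci. Scaled to Gapdh1 these medians were 0.46 and 0.58, and all coding loci with at least 1 FPKM moved along to 0.47. Rpt6 was the highest, at 775 FPKM without and 1195 with paraquat, and Rpn7 the lowest, at 156 and 97.8.

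The log2 ratio with paraquat was higher in aged than in young flies for 26 of 31 subunits, and for 5365 of 10720 protein-coding loci. The median difference was 0.57 for the subunits against 0.00 for those loci. The 82 abundant short loci had median ratios with paraquat of -0.62 in young and -0.05 in aged flies. Those of the 31 subunits together were close to these, at -0.62 and -0.08, though many cap subunits lie outside the limits of that set. Those of the core were -0.93 and -0.09. The median difference was 0.92 for the beta ring, 0.45 for the alpha ring, 0.52 for the base and 0.21 for the lid. The subunits below 0 were Prosalpha4, Rpn6, Rpn7, Rpn8 and Rpn11. The difference itself was not tested, and the values above are for FPKM as deposited. A single factor applied to any group would move all genes by the same amount, but quantile normalization does not. After it the median ratio of the 31 subunits with paraquat was -0.097 in young and -0.045 in aged flies. For the core these medians were -0.52 and -0.06, and for the cap -0.03 and 0.01.

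Genes that assemble or assist the proteasome were listed apart from it. Of 10 such genes, 5 fell at least 2-fold with age in water and 1 rose, where 25.9% of all protein-coding loci were lower and 17.6% higher. CG12321, a predicted assembly chaperone, was at 7942 FPKM in H2O-Young against 1027 in H2O-Aged, and 3678 in PQ-Young against 991 in PQ-Aged, and it also fell at least 2-fold with paraquat in young flies. Sem1, the smallest lid protein, was at 2799, 2446, 929 and 1141 FPKM, and Pomp, which matures the core, at 628, 377, 168 and 157. PI31, a proteasome regulator, was at 330, 264, 81.7 and 53.5 FPKM, and Uch-L5, a deubiquitinase bound to Rpn13, at 230, 132, 96.4 and 101. Usp14, another deubiquitinase of the cap, did not reach 2-fold, with 406, 342, 252 and 240 FPKM. REG, the fly PA28 gamma activator, which caps the core in place of the 19S, was the one that rose, with 30.2 FPKM in H2O-Young against 70.3 in H2O-Aged, and 48.0 in PQ-Young against 43.5 in PQ-Aged. The list had a median log2 ratio of -1.10 with age in water, which was 0.03 as a share of coding FPKM. In the other comparisons 4 of the 10 fell and none rose with age in paraquat, where 17.0% of all coding loci were lower. With paraquat 1 fell in young flies, where 13.6% of all coding loci were lower. None passed in aged flies, where 7.47% were lower and 8.57% higher.

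Cnc and its partners ranged widely in level. The gene cnc itself was at 26.8 FPKM in H2O-Young against 30.8 in H2O-Aged, and 35.7 in PQ-Young against 45.9 in PQ-Aged, and no ratio reached 2-fold. Its dimer partner maf-S was at 473, 443, 149 and 247 FPKM, and fell with age in water. Keap1, which holds Cnc inactive, was at 9.35, 10.2, 14.5 and 16.8 FPKM, and rngo, the fly DDI1, at 105, 83.4, 63.4 and 51.3. Pngl, an N-glycanase, rose with age in water, from 5.23 to 12.6 FPKM. Thus 1 of 5 fell and 1 rose in that comparison, close to the shares of all coding loci (25.9% and 17.6%). None passed in the other 3, where 7.47% to 17.0% of all coding loci were lower and 8.57% to 12.6% higher.

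Ubiquitin itself was measured through its precursor genes. Of these and the activating enzyme Uba1, 5 genes in all, 1 fell with age in water, 2 with age in paraquat, none with paraquat in young and 1 in aged flies, and none rose. The count with age in water lies under the share of all coding loci, 25.9%. In the other comparisons the share lower was 17.0% with age in paraquat, and with paraquat 13.6% in young and 7.47% in aged flies. The polyubiquitin gene Ubi-p63E was at 795 FPKM in H2O-Young against 240 in H2O-Aged, and 443 in PQ-Young against 156 in PQ-Aged, and its relative Ubi-p5E at 396, 416, 356 and 162. The fusions of ubiquitin with ribosomal proteins were higher, with RpL40 at 3875, 4097, 2514 and 2821 FPKM and RpS27A, whose locus also holds Ip259, at 3257, 3681, 2204 and 2104.

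Of 6 genes of the unfoldase p97 and of ubiquitin shuttle factors, 2 fell with age in water, 3 with age in paraquat and none with paraquat, and none rose. Of all coding loci 25.9% and 17.0% were lower with age, and with paraquat 13.6% in young and 7.47% in aged flies. The p97 cofactor p47 was at 787, 665, 335 and 226 FPKM, and the cofactor Ufd1 at 538, 469, 221 and 233. Npl4, which works with Ufd1, was at 282, 293, 192 and 142 FPKM and reached 2-fold with age in paraquat but not in water, a difference that was not tested. The shuttle Ubqn, at 283, 283, 151 and 259 FPKM, reached it in neither. Their median with age in water, -0.73, was 0.01 after quantile normalization and 0.41 as a share of coding FPKM. Of the 8 genes of the COP9 signalosome, a complex built like the lid, 1 fell with age in water, CSN8, with 230 FPKM in H2O-Young against 71.0 in H2O-Aged, and 119 in PQ-Young against 111 in PQ-Aged. This count too is under the 25.9% of all coding loci. None of the 8 passed in the other comparisons, where 7.47% to 17.0% of all coding loci were lower and 8.57% to 12.6% higher. CSN6 was at 190, 158, 98.9 and 93.0 FPKM, CSN7 at 108, 101, 67.5 and 78.7, and CSN5, the deneddylase, at 79.5, 69.3, 51.6 and 50.9. The median of the complex with age in water, -0.61, was 0.53 as a share of coding FPKM.

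Of the 14 proteasome paralogs known from the testis, 12 were close to 0 in these female samples. Rpt3R was the highest, at 57.9 FPKM in H2O-Young against 26.04 in H2O-Aged, and 56.9 in PQ-Young against 20.2 in PQ-Aged, but its locus also holds Tti1, so the value may belong to that gene. Rpt6R was at 5.72, 6.48, 10.8 and 14.6 FPKM. None of the other 12 exceeded 1.52 FPKM in any group, the value of Prosbeta2R2 in PQ-Aged, and their ratios are not read. RpL13A, the gene of the tagged protein, which includes the native copy, was at 8001, 7306, 3849 and 3171 FPKM.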

How the data were processed

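Ribosome-bound RNA from 12 oenocyte libraries (NEBNext directional kit, single-end reads) was processed by the authors with TopHat2, Cufflinks and Cuffdiff on dm6, per the labels and the methods of the study. The authors' deposited table gives 1 FPKM per locus and group for all 6 pairs of the 4 groups. The group values were the same in every pair (0 differed). The table's fold change, test statistic, p-value, q-value and significance columns were not used. How the libraries were scaled is not given in the sources used here, and the depth per library is unknown.

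RefSeq accessions were matched to symbols with the RefSeq gene table. Coordinates are those of RefSeq, and transcript lengths and strands those of the Ensembl annotation, on the same assembly as dm6. Protein-coding loci were 13299, and 53 marked as holding too many fragments were left out, which leaves 13246; of the 13299, 480 hold at least 2 coding genes. A symbol at several loci took the locus of highest FPKM. A locus was tested with at least 0.01 FPKM in a group, and called at a ratio of at least 2 or at 0 in 1 group. Medians leave out loci at 0. With 1 pooled value per group, no test was run; in the alternatives, a median was taken as moved at a shift of 0.1 (log2) and a count at 1.5-fold, limits set for this purpose.

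The 4 group values are given for the highest and lowest subunit of each subcomplex in H2O-Young, those with the largest and smallest age ratio, the catalytic subunits and those past 2-fold with paraquat; other subunits named with values were added after these were seen. From each related list, the 4 highest genes and those past 2-fold are named, except the testis paralogs near 0. Members and lists were chosen with earlier results of these data known. Scripts were tested on simulated data (Python 3.11.15, pandas 2.3.3).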

Additional observations from a re-analysis of the deposited data

How the results depend on the processing

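Each count and median of the 31 subunits was recomputed under 4 other scalings, a 1.5-fold limit, a pseudocount of 1, without loci of several coding genes, with FPKM summed over the loci of a symbol, and with a minimum of 10 FPKM or a mean of at least 100 FPKM. Of the resulting values 91 kept their direction and size within the limits given with the processing, 24 moved and 1 turned direction. For age in water, counts of lower subunits were 9 (quantile) and 10 (as a share of coding FPKM) in place of 27, of higher subunits 1 and 2, and medians -0.56 and -0.71, with -1.48 scaled to Gapdh1. For age in paraquat, the lower count was 1 (Gapdh1), 3 (quantile) and 5 (share) in place of 24, and the median -0.31, -0.51 and -0.59, with -1.23 scaled by the median ratio. For paraquat in young flies, the lower count was 9 (Gapdh1), 0 (quantile), 0 (share) and 17 (1.5-fold) in place of 5, and the median -0.72, -0.097 and -0.19. For paraquat in aged flies, 2 subunits were lower and 1 higher at 1.5-fold, 1 was higher when scaled to Gapdh1, and the median turned from -0.08 to 0.47 with Gapdh1. The cause of the differences between groups in total FPKM was not tested. A minimum of 10 FPKM or a mean of at least 100 FPKM left the subunits' values as they were but moved those of all loci: with age in water 22.5% and 44.2% were lower in place of 25.9%, 11.7% and 3.02% higher in place of 17.6%, and the median was -0.09 and -0.85 in place of -0.17. The abundant short loci and the classes of transcript length were chosen after seeing the data. No paired analysis was possible because the table holds 1 pooled value per group, so replicate numbers, single libraries and their depth could not enter any fit or be left out.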
